A study of Mus musculus with 2 samples.

Results

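The 10 genes described here encode glycosyltransferases and were grouped as mucin glycosylation enzymes. They were *Galnt3*, *Galnt12*, *C1galt1*, *Gcnt3*, *St6galnac1*, *St6gal1*, *St3gal4*, *B4galnt3*, *Fut2* and *Fut9*, chosen by exact gene symbol from the 32285 genes of the deposited matrices. Each symbol matched 1 gene, and the glycoproteins that each enzyme modifies were not measured. Their transcripts were measured by single-nucleus RNA sequencing of frozen mouse colon in 2 libraries, WT and HIF-1α KO. HIF-1α KO mice were Ncr1cre+ Hif-1α fl+/fl+, so that Cre was driven by the *Ncr1* (NKp46) promoter, which is active in NKp46+ innate lymphoid and NK cells, and WT mice were their littermates. Mice of both genotypes were 8 to 12 weeks old at the start and received 4 cycles of 3 days of 2% dextran sodium sulfate (DSS) in drinking water, each followed by 4 days of recovery, and colon was taken at day 28. No library without DSS was analysed here. Each genotype was represented by 1 library pooled from 3 animals. Genotype, pool and library therefore cannot be told apart, nuclei are not replicates, and no p-value is given.

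Secreted mucins, in the colon chiefly Muc2, carry dense O-linked glycans. A polypeptide GalNAc transferase attaches the first sugar to serine or threonine in the Golgi, core enzymes add galactose or a branching N-acetylglucosamine, and sialyl-, fucosyl-, sulfo- and other terminal transferases finish the chains. Goblet cells secrete this mucus, whereas absorptive enterocytes use overlapping enzymes for the membrane-bound glycoproteins of their brush border.

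A UMI (unique molecular identifier) counts 1 captured transcript. Nuclei with 400 to 5000 detected genes and at most 10% mitochondrial UMIs were kept, 4884 of 4896 for WT and 4702 of 4772 for HIF-1α KO, with medians of 2058.5 and 4197 UMIs. The HIF-1α KO library was thus deeper per nucleus. Doublets were limited by the upper bound on detected genes, and no doublet caller was run. The count of barcode sequences found in both libraries was 3. *Hif1a* was at 172 UMIs per 1000000 UMIs (CPM) in WT and 199 in HIF-1α KO, and *Ncr1* had 1 UMI and 0 UMIs, so the deletion in rare NKp46+ cells could not be checked in these libraries.

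Nuclei were clustered without the 10 genes and without the other glycosylation genes, and the clusters were named from marker genes. Goblet-like nuclei numbered 578 in WT and 948 in HIF-1α KO, in 3 clusters (5, 7 and 10), and absorptive-like nuclei numbered 500 and 817, in 2 clusters (1 and 14). *Muc2* was at 4494 CPM in WT and 3808 in HIF-1α KO goblet-like nuclei, against 501 and 550 in all other nuclei, and the remaining goblet markers *Bcas1*, *Clca1*, *Fcgbp*, *Tff3*, *Zg16*, *Spdef* and *Agr2* were likewise higher in goblet-like nuclei in both libraries. All 8 absorptive markers were higher in absorptive-like nuclei in both libraries, among them *Ceacam20* at 640 against 60.2 CPM in WT and *Slc26a3* at 1464 against 193. Cluster 5 was the weakest goblet-like cluster, since 3 of the 8 goblet markers passed there, against all 8 in cluster 7 and 6 in cluster 10.

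RNA of other nuclei was present in every class. *Muc2*, which mesenchymal nuclei do not use, stood at 460 CPM in WT and 666 CPM in HIF-1α KO mesenchymal-like nuclei, and absorptive-like nuclei held similar levels of 387 and 511 CPM. The mesenchymal-like level of each enzyme in the same library is therefore given below as a reference. It is no floor, since for *St6gal1*, *St3gal4* and *B4galnt3* some epithelial levels lay below it with intervals apart, and free RNA and expression in mesenchymal nuclei cannot be told apart in it. Values are sums of UMIs over nuclei of a class, scaled to CPM within that sum, with exact 95% Poisson intervals. All intervals cover counting error only.

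Of the 10 genes, 9 had at least 50 UMIs over the 4 goblet-like and absorptive-like sums and were compared, and *St6galnac1* did not. A gene was called where its CPM differed at least 2-fold with intervals that did not overlap, in the same direction in both libraries. By that rule 5 of the 9 were higher in goblet-like nuclei, *Galnt12*, *Gcnt3*, *St6gal1*, *Fut2* and *Fut9*, where 8% of the 11150 genes compared were higher. *St3gal4* alone was lower, where 5.96% of all genes compared were lower. The median log2 ratio of goblet-like over absorptive-like nuclei over the 9 genes was 1.5 in WT and 1.6 in HIF-1α KO, and over all genes compared it was 0.13 and 0.26. The plot of goblet-like over absorptive-like ratios shows the 9 genes on this scale.

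**Figure D1:**
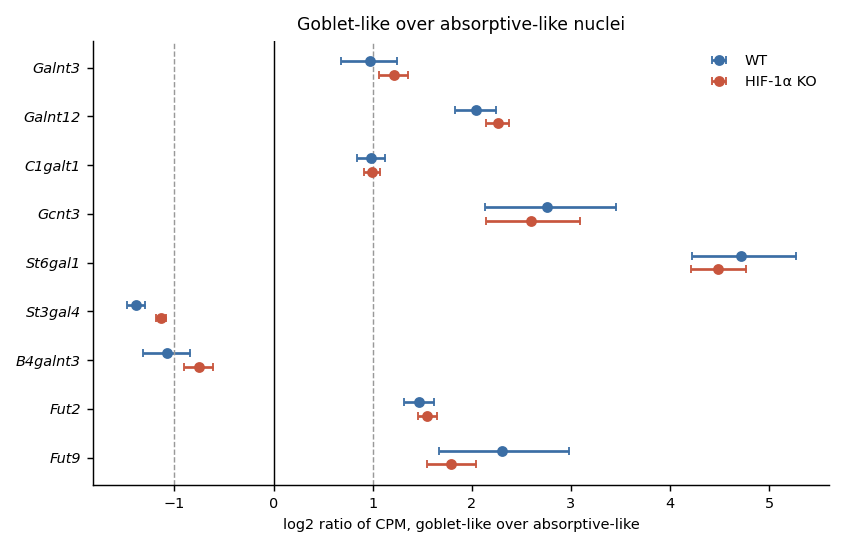
Log2 ratio of CPM in goblet-like over absorptive-like nuclei for the 9 genes with at least 50 UMIs, in WT (blue) and HIF-1α KO (red), 1 library each. Bars are exact 95% intervals of counting error and dashed lines mark 2-fold; *St6gal1* lies farthest to the right at 4.72 and 4.48, and *St3gal4* and *B4galnt3* lie left of 0 in both libraries.

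*St6gal1*, whose product adds sialic acid in α2,6 linkage to galactose, separated the 2 lineages most widely. It lies on the plus strand of chromosome 16 (chr16:23224740-23360350, GRCm38, GENCODE M21). RefSeq gives 3 start sites for it, and the 250 bases before each are shown because reads from the 3′ end of a transcript do not tell which start was used. Capitals mark matches, on either strand, to ACGTG, the core of a hypoxia response element, or to CAGATG, an E-box.

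St6gal1 start 1, chr16:23224490-23224739: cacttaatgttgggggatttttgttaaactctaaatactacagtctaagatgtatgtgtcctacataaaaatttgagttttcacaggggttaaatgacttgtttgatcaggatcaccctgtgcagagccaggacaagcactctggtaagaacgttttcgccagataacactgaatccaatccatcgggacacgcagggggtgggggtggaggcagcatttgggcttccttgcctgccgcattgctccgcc
St6gal1 start 2, chr16:23225771-23226020: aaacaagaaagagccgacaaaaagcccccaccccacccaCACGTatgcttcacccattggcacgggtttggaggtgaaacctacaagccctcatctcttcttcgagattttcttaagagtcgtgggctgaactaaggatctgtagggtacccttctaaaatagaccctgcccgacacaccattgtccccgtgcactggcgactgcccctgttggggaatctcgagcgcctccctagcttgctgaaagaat
St6gal1 start 3, chr16:23290220-23290469: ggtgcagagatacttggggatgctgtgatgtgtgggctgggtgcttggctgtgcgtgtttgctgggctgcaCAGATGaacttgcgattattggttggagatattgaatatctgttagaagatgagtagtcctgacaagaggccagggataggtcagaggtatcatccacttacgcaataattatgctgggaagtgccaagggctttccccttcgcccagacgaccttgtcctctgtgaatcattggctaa

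These are plus-strand RefSeq sequences of GRCm38.p6. Start 2 had 1 match to ACGTG, start 3 had 1 match to CAGATG, and start 1 had neither. Matches to ACGTG were found in 16.6% of 32851 windows of the same length and matches to CAGATG in 14.4%. TTTATNG, a CDX2 motif, and CAAAGTNCA, an HNF4 motif, were searched on both strands as well and had no match here, against 9.81% and 1.19% of all windows. RefSeq windows were on hand for 5 of the 10 genes, and those of *Galnt3*, *C1galt1*, *B4galnt3* and *St3gal4* held none of the 4 motifs. A match describes letters in a window and nothing more. *C1galt1*, *St6gal1*, *St3gal4* and *B4galnt3* overlap a gene on the other strand, and *Galnt12* and *C1galt1* overlap one on their own strand. Whether counting used strand was not given in the sources used here, and how reads of overlapping genes were assigned was not checked.

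In goblet-like nuclei *St6gal1* was at 408 CPM in WT (interval 379 to 438, 749 UMIs) and 436 CPM in HIF-1α KO (418 to 455, 2171 UMIs). In absorptive-like nuclei it was at 15.4 CPM (33 UMIs) and 19.5 CPM (114 UMIs). The ratio was 26.4-fold in WT and 22.4-fold in HIF-1α KO, with log2 intervals of 4.22 to 5.27 and 4.21 to 4.77 that overlapped each other. The absorptive-like level was below the mesenchymal-like level of 79.6 and 56.4 CPM, and how much of it is free RNA was not tested. The size of the ratio rests on that low level: with the mesenchymal-like level subtracted, which sets absorptive-like nuclei at the floor of 3 UMIs, the log2 ratio was 7.87 in WT and 9.53 in HIF-1α KO, against 4.72 and 4.48.

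*St6gal1* also divided the goblet-like nuclei among themselves. Cluster 10, led by genes such as *Best2*, *Capn9*, *Scin* and *Hepacam2*, held 988 CPM in WT and 835 CPM in HIF-1α KO. Cluster 7, where *Clca1* and *Fcgbp* led, held 335 and 336 CPM, and cluster 5, where *Slc12a8* and *Spink4* led, held 255 and 327 CPM. Cluster 10 was 2.95-fold and 2.48-fold above cluster 7, with intervals that did not overlap in either library. *St6gal1* was among the leading genes of cluster 10, although it had no part in the clustering. Outside the epithelium it was high in immune-like nuclei, at 632 CPM in WT and 717 CPM in HIF-1α KO, and higher again in their cluster 11, at 910 and 1049 CPM.

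The share of nuclei with at least 1 *St6gal1* UMI gave the same order. It was 39.8% in WT and 50.7% in HIF-1α KO goblet-like nuclei, 5.6% and 9.55% in absorptive-like nuclei, and 14.8% and 14% in mesenchymal-like nuclei, at median depths of 2559 and 4637.5, 3609.5 and 5969, and 1946 and 2398 UMIs. With every nucleus thinned to 1000 UMIs the shares were 20.4% and 23.4% in goblet-like, 1.8% and 0.734% in absorptive-like, and 7.95% and 5.2% in mesenchymal-like nuclei. Thinning left out 1 goblet-like and 7 mesenchymal-like nuclei of the HIF-1α KO library, which held fewer UMIs than that.

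**Figure D2:**
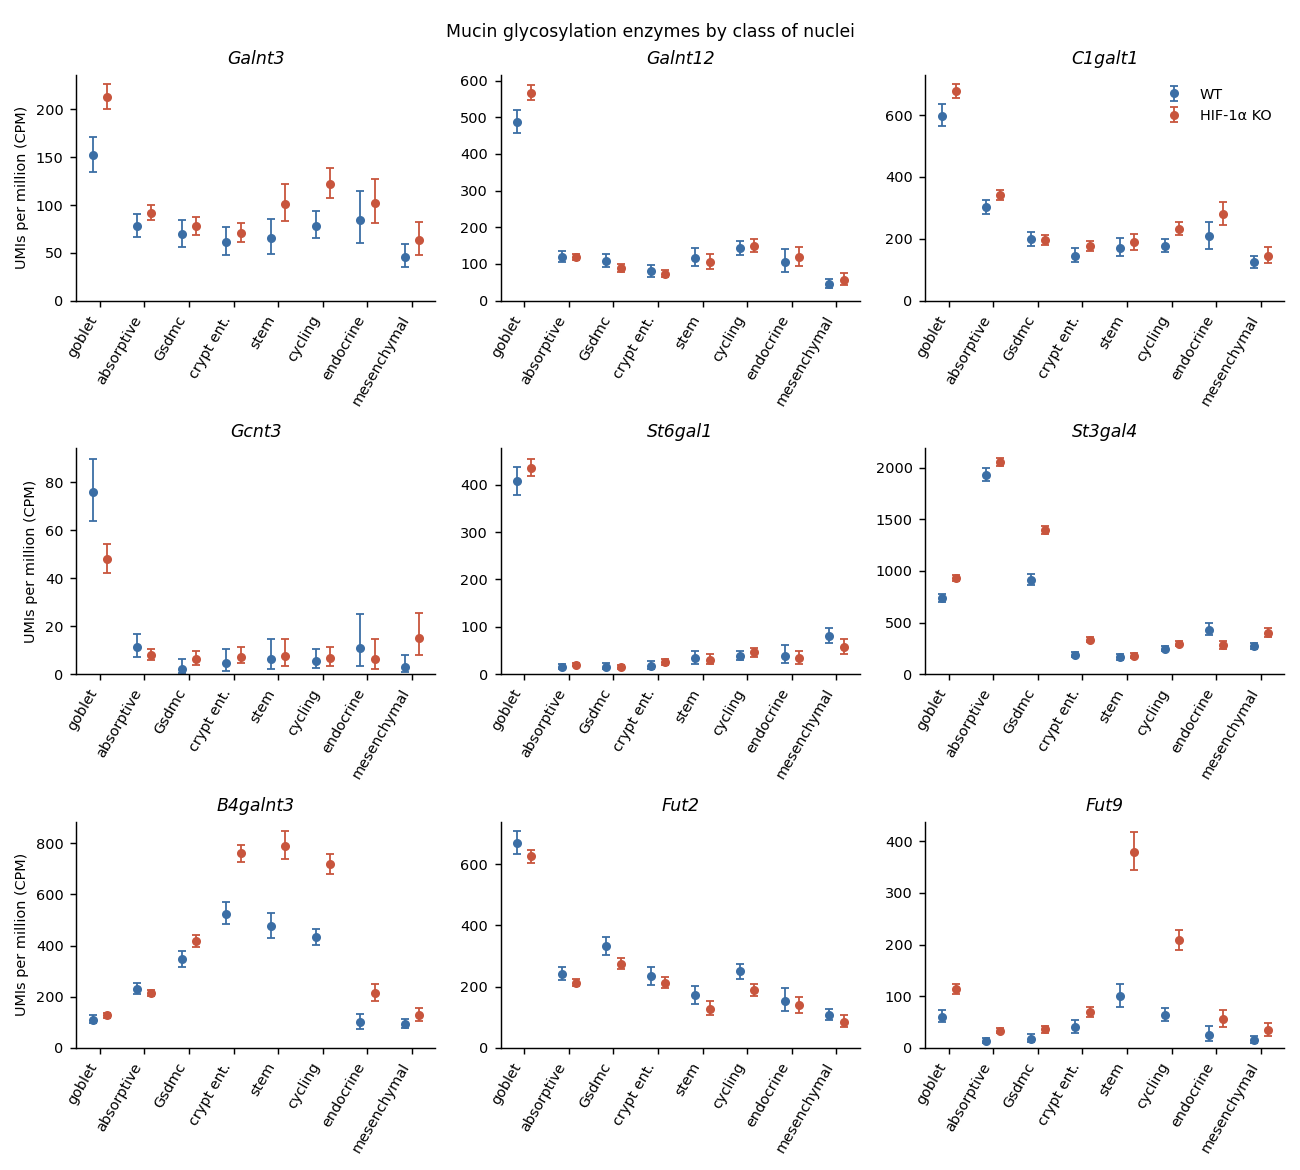
CPM of 9 enzymes in 7 epithelial classes of nuclei and in mesenchymal-like nuclei, in WT (blue) and HIF-1α KO (red), with exact 95% Poisson intervals and axes from 0. *Galnt3*, *Galnt12*, *C1galt1*, *Gcnt3*, *St6gal1* and *Fut2* peak in goblet-like nuclei, *St3gal4* in absorptive-like nuclei, *B4galnt3* in crypt enterocyte-like, stem-like and cycling nuclei, and *Fut9* in stem-like nuclei.

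The first sugar of the chain is added by *Galnt3* and *Galnt12*, 2 members of the polypeptide GalNAc transferase family. *Galnt12* (chr4:47091909-47123070, plus strand) was at 487 CPM in WT (456 to 520) and 567 CPM in HIF-1α KO goblet-like nuclei (547 to 589). Absorptive-like nuclei held 119 and 118 CPM, so that the ratio was 4.1-fold in WT and 4.79-fold in HIF-1α KO. The next epithelial class was cycling nuclei at 142 and 150 CPM, and the mesenchymal-like level was 44.5 and 56.4 CPM. Within goblet-like nuclei *Galnt12* ranged from 431 CPM in cluster 7 to 579 CPM in cluster 10 in WT and from 533 to 686 CPM in HIF-1α KO.

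*Galnt3* (chr2:66082766-66124994, minus strand) also peaked in goblet-like nuclei, with 152 CPM in WT and 213 CPM in HIF-1α KO, against 78.0 and 92.1 CPM in absorptive-like nuclei. Its goblet-like interval lay above that of every other epithelial class in both libraries. The ratio was 1.95-fold in WT and 2.32-fold in HIF-1α KO, just outside and just inside the 2-fold limit, and it was not called. Mesenchymal-like nuclei stood at 46.0 and 63.3 CPM.

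*C1galt1* and *Gcnt3* build the core. *C1galt1* (chr6:7844842-7875687, plus strand) encodes the galactosyltransferase that makes core 1, and it was detected in most goblet-like nuclei, 74.2% in WT and 89.1% in HIF-1α KO, against 24.4% and 34.2% of mesenchymal-like nuclei. Its level was 599 CPM in WT and 678 CPM in HIF-1α KO goblet-like nuclei and 303 and 341 CPM in absorptive-like nuclei. The ratios of 1.98-fold and 1.99-fold fell just short of the limit, although the intervals of the 2 classes did not overlap. Absorptive-like nuclei ranked second in both libraries, above all remaining epithelial classes with intervals apart from the next. The 3 goblet-like clusters did not differ beyond their intervals in WT, at 586 to 635 CPM.

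*Gcnt3* (chr9:70031496-70038088, minus strand) encodes the branching enzyme that makes core 2 and core 4 on mucins. Goblet-like nuclei held 76.2 CPM in WT (140 UMIs) and 47.9 CPM in HIF-1α KO (238 UMIs). Absorptive-like nuclei held 11.2 CPM (24 UMIs) and 7.87 CPM (46 UMIs), which was 6.79-fold and 6.08-fold lower. Every other epithelial class was at or below 10.8 CPM, on 3 to 21 UMIs, and mesenchymal-like nuclei were at 3.12 and 15.0 CPM. Outside goblet-like nuclei no HIF-1α KO epithelial class exceeded the mesenchymal-like level, though absorptive-like cluster 14 held 16.3 CPM on 17 UMIs.

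Cluster 7 carried most of the *Gcnt3* signal. It held 146 CPM in WT (109 UMIs) and 82.7 CPM in HIF-1α KO (158 UMIs). Cluster 10 held 63.2 and 36.6 CPM, and cluster 5 held 15.2 and 20.8 CPM. Cluster 7 was 9.55-fold above cluster 5 in WT and 3.98-fold in HIF-1α KO, with intervals apart in both. *Gcnt3* and *St6gal1* therefore had their peaks in different goblet-like clusters, and cluster 10 exceeded cluster 7 for *St6gal1* while cluster 7 exceeded cluster 10 for *Gcnt3* by 2.3-fold and 2.26-fold.

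**Figure D3:**
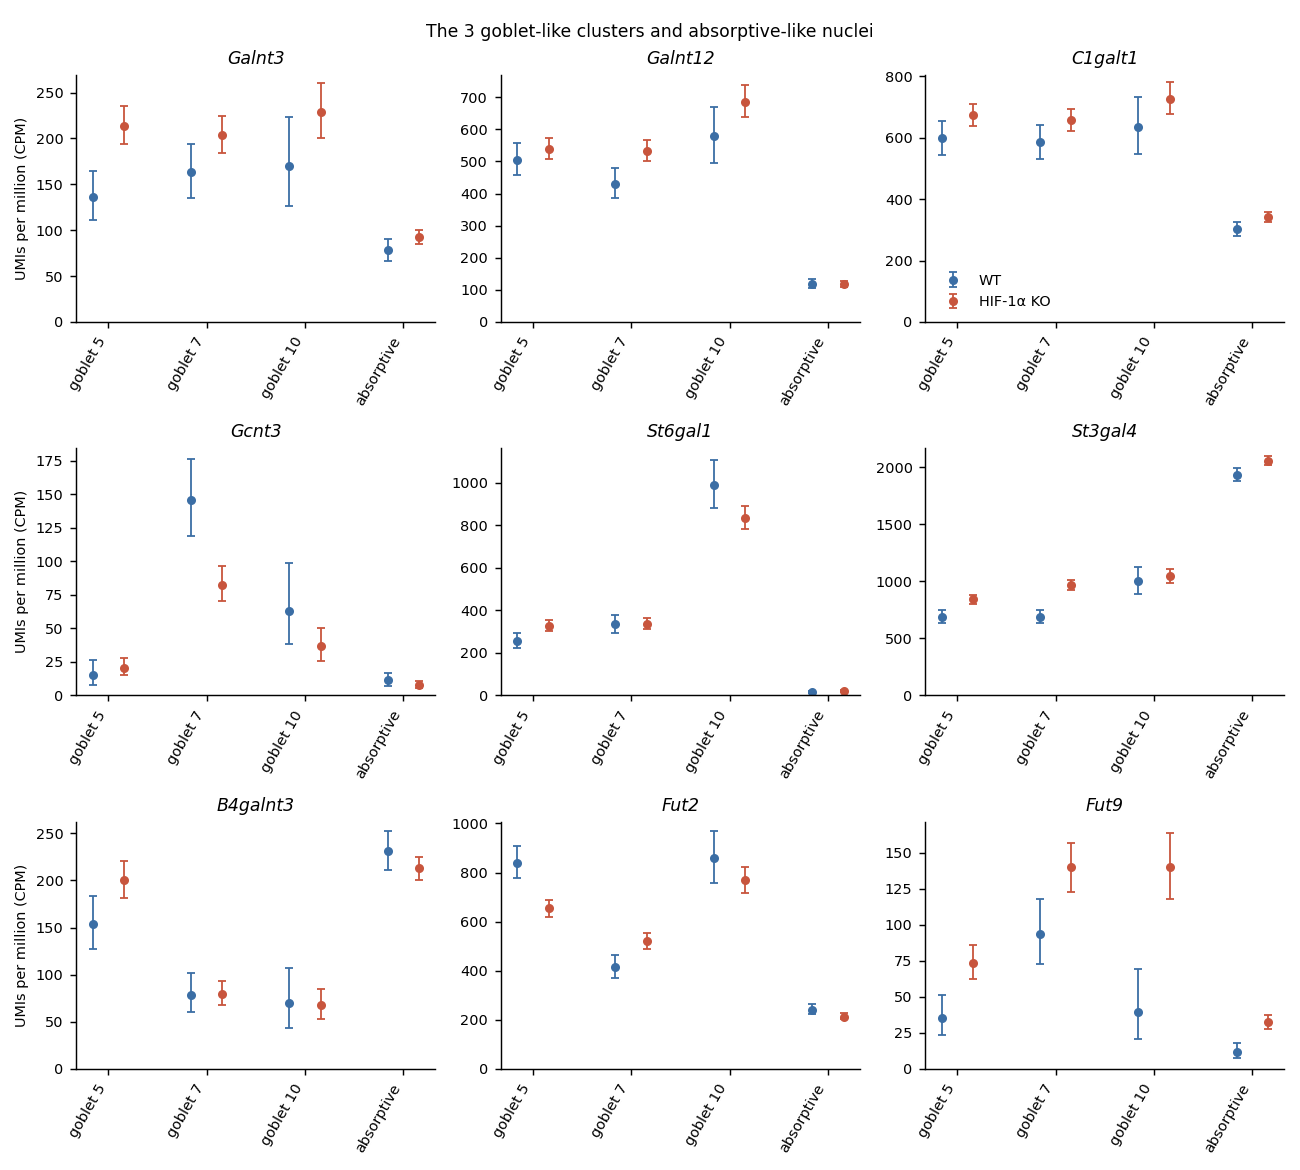
CPM of 9 enzymes in the 3 goblet-like clusters (5, 7 and 10) and in absorptive-like nuclei, in WT (blue) and HIF-1α KO (red), with exact 95% Poisson intervals and axes from 0. *Gcnt3* peaks in cluster 7 (146 and 82.7 CPM), *St6gal1* in cluster 10 (988 and 835 CPM), and among the goblet-like clusters *B4galnt3* is highest in cluster 5 (154 and 200 CPM).

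*St6galnac1* (chr11:116765025-116775507, minus strand) encodes a sialyltransferase that caps the first GalNAc of the chain, the step that makes the sialyl-Tn antigen. It was all but undetected, with 1 UMI in the WT library and 6 UMIs in the HIF-1α KO library. None of them came from goblet-like nuclei. With 0 UMIs there, the interval reached up to 2.01 CPM in WT and 0.742 CPM in HIF-1α KO. The floor of 3 UMIs stood at 1.63 and 0.603 CPM. The 7 UMIs were spread over absorptive-like, Gsdmc enterocyte-like, crypt enterocyte-like and cycling nuclei, with at most 2 in any class and library, and no ratio was computed.

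*St3gal4* (chr9:35046576-35119268, minus strand), whose product adds sialic acid in α2,3 linkage, ran the opposite way to *St6gal1*. Absorptive-like nuclei held 1935 CPM in WT (1877 to 1995, 4142 UMIs) and 2056 CPM in HIF-1α KO (2020 to 2094, 12019 UMIs). Goblet-like nuclei held 740 and 933 CPM. Goblet-like levels were 2.61-fold and 2.2-fold lower, with log2 intervals of -1.48 to -1.3 and -1.19 to -1.09. The call stood close to the limit, and the HIF-1α KO log2 ratio came to -0.88 without integration of the libraries, -0.98 with nuclei assigned by their own marker scores and -0.99 after thinning, where *St3gal4* was no longer called.

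The level of *St3gal4* differed in steps among the enterocyte classes. In WT it was 186 CPM in crypt enterocyte-like nuclei, marked by *Cftr* and *Htr4*, 917 CPM in Gsdmc enterocyte-like nuclei, marked by gasdermin C genes, and 1935 CPM in absorptive-like nuclei. In HIF-1α KO the same classes held 335, 1399 and 2056 CPM. Stem-like nuclei were lowest in both libraries, at 165 and 177 CPM, which was 11.7-fold and 11.6-fold below absorptive-like nuclei. Crypt enterocyte-like and stem-like levels lay below the mesenchymal-like level of 271 and 399 CPM. Endothelial-like nuclei were at 749 and 658 CPM, above that level.

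The absorptive-like clusters also differed in *St3gal4*. Cluster 1 held 2083 CPM of *St3gal4* in WT and 2234 CPM in HIF-1α KO, and cluster 14, led by *Saa1* and *Ly6g*, held 1264 and 1243 CPM. *St6gal1* was at 16.5 and 21.5 CPM in cluster 1 and at 10.3 and 10.5 CPM in cluster 14, on 4 and 11 UMIs, so it was no higher where *St3gal4* was lower.

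*B4galnt3* (chr6:120203073-120294559, minus strand) encodes a transferase that adds a terminal β1,4-linked GalNAc to N-acetylglucosamine. It followed neither the goblet nor the mature absorptive class. In WT it was at 525 CPM in crypt enterocyte-like, 476 CPM in stem-like and 432 CPM in cycling nuclei, where the intervals of neighbours overlapped. It then stood at 346 CPM in Gsdmc enterocyte-like, 231 CPM in absorptive-like, 109 CPM in goblet-like and 99.4 CPM in enteroendocrine-like nuclei. In HIF-1α KO the first 3 classes held 761, 792 and 719 CPM, and absorptive-like and goblet-like nuclei held 213 and 126 CPM.

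Goblet-like levels of *B4galnt3* were 2.11-fold below absorptive-like levels in WT and 1.69-fold below in HIF-1α KO, and the gene was not called. Goblet-like levels could not be told from the mesenchymal-like level of 93.6 and 128 CPM. Cluster 5 was highest, with 154 and 200 CPM, whereas clusters 7 and 10 held 67.4 to 79.5 CPM. Without cluster 5 the log2 ratio of goblet-like over absorptive-like nuclei was -1.6 in WT and -1.5 in HIF-1α KO, and *B4galnt3* was called lower beside *St3gal4*. Crypt enterocyte-like nuclei exceeded goblet-like nuclei 4.8-fold and 6.03-fold.

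*Fut2* and *Fut9* add fucose. *Fut2* (chr7:45648591-45666394, minus strand) encodes the secretor enzyme, which adds α1,2-linked fucose to terminal galactose. It peaked in goblet-like nuclei in both libraries, at 670 CPM in WT (633 to 708) and 626 CPM in HIF-1α KO (604 to 648), against 242 and 213 CPM in absorptive-like nuclei. The ratio was 2.77-fold and 2.93-fold. Gsdmc enterocyte-like nuclei ranked second, at 332 and 275 CPM, with intervals apart from the classes before and after. The mesenchymal-like level was 106 and 84.1 CPM, below every epithelial class in both libraries. Among goblet-like clusters *Fut2* was lowest in cluster 7, at 416 CPM in WT and 520 CPM in HIF-1α KO. Clusters 5 and 10 held 839 and 858 CPM in WT and 654 and 768 CPM in HIF-1α KO, so *Fut2* was low where *Gcnt3* was high.

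*Fut9* (chr4:25609332-25800244, minus strand) encodes an α1,3-fucosyltransferase that makes the Lewis x structure. Goblet-like nuclei held 59.9 CPM in WT (110 UMIs) and 113 CPM in HIF-1α KO (561 UMIs), and absorptive-like nuclei held 12.1 CPM (26 UMIs) and 32.5 CPM (190 UMIs). The ratio was 4.93-fold and 3.47-fold, and the absorptive-like intervals overlapped the mesenchymal-like level of 14 and 33.4 CPM. With that level subtracted, which sets absorptive-like nuclei at the floor of 3 UMIs, the log2 ratio was 5.03 and 7.27, against 2.3 and 1.79. In goblet-like clusters 5, 7 and 10 *Fut9* was at 35.5, 93.4 and 39.9 CPM in WT and at 73.6, 140 and 140 CPM in HIF-1α KO. Cluster 5 was below cluster 7 with intervals apart in both libraries, and below cluster 10 with intervals apart in HIF-1α KO and overlapping in WT.

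Among the epithelial classes the highest *Fut9* level was not in goblet-like nuclei. Stem-like nuclei, in which 3 of 7 stem markers passed and *Tnfrsf19* had 0 UMIs, held 100 CPM in WT (79.3 to 124) and 379 CPM in HIF-1α KO (344 to 418), with intervals above every other epithelial class. Cycling nuclei followed in HIF-1α KO at 208 CPM, and in WT they did not differ from goblet-like nuclei, at 62.7 against 59.9 CPM. Goblet-like cluster 7 alone held 93.4 CPM (72.8 to 118) in WT, an interval that overlapped the stem-like one. In HIF-1α KO it held 140 CPM (123 to 157), below the stem-like interval. Stem-like levels were 8.23-fold and 11.7-fold above absorptive-like levels. *Fut9* was among the 10 leading genes of the stem-like cluster, although it had no part in the clustering.

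The genotypes were compared within each epithelial class. A gene was called where CPM differed at least 1.5-fold with intervals that did not overlap, among genes with at least 50 UMIs over both libraries. With 1 library per genotype a call compares these 2 libraries, and their difference has no replicate check. The direction is HIF-1α KO over WT throughout.

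In goblet-like nuclei 2 of the 9 genes compared were called, *Gcnt3* lower and *Fut9* higher, where 13.7% of all 9317 genes compared were called. The median log2 ratio over the 9 genes was 0.2, and over all genes it was 0.037. *Fut9* had a log2 ratio of 0.91 (0.62 to 1.22), which differed by cluster. It was 1.05 (0.46 to 1.69) in cluster 5 and 1.81 (0.96 to 2.79) in cluster 10, on 12 and 145 UMIs, and was called in both. In cluster 7 it was 0.58 (0.2 to 0.98) and not called. *Gcnt3* was at 76.2 CPM in WT and 47.9 CPM in HIF-1α KO, a log2 ratio of -0.67 (-0.98 to -0.36). By cluster, the log2 ratio of *Gcnt3* was -0.82 (-1.18 to -0.45) in cluster 7. It was close to that in cluster 10, at -0.79 (-1.62 to 0.09) on 19 and 38 UMIs, with an interval that reached past 0. In cluster 5 it was 0.45 (-0.51 to 1.51) on 12 and 42 UMIs. Without cluster 7 the log2 ratio was -0.12 and *Gcnt3* was not called, while *Galnt3* was. *Gcnt3* was also not called after thinning (-0.49) or with nuclei weighted equally (-0.5). The goblet marker genes went both ways in these nuclei. *Zg16* was at 3763 CPM in WT and 1927 CPM in HIF-1α KO goblet-like nuclei, and *Muc2* at 4494 and 3808 CPM. *Clca1* was at 2233 and 2177 CPM and *Fcgbp* at 3624 and 3505 CPM. Higher in HIF-1α KO were *Bcas1* (846 and 1142 CPM), *Tff3* (171 and 225 CPM), *Spdef* (306 and 344 CPM) and *Agr2* (648 and 727 CPM). Their part in the result was not tested.

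Of the genes not called in goblet-like nuclei, *Galnt3* had the largest log2 ratio, 0.49 (0.29 to 0.68). *St3gal4* was at 0.33 (0.25 to 0.42), *Galnt12* at 0.22 (0.11 to 0.33) and *C1galt1* at 0.18 (0.08 to 0.28). *St6gal1*, *B4galnt3* and *Fut2* had values of 0.1, 0.2 and -0.1. All were inside 1.5-fold in the class as a whole. By cluster, *Galnt3* was called higher in cluster 5, at 136 and 214 CPM (0.66, 0.35 to 0.97). It was not called in cluster 7 (0.33) or cluster 10 (0.43).

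In absorptive-like nuclei 1 of the 9 genes was called, *Fut9*, where 16.7% of all 9165 genes compared were called. Its log2 ratio was 1.42 (0.82 to 2.07), at the low levels given above, and it was not called after thinning (1.34). The mesenchymal-like log2 ratio of *Fut9* was 1.25 (0.35 to 2.19) on 18 and 29 UMIs, and the part of free RNA in this result was not tested. The other 8 genes lay between -0.51 for *Gcnt3* and 0.34 for *St6gal1*.

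*Fut9* and *B4galnt3* were both called in stem-like and in cycling nuclei. The same 2 of 8 genes were called higher in the nuclei of no named class, clusters 0 and 20. Cluster 0 held 1111 of these 1128 nuclei in WT and 398 of 411 in HIF-1α KO. It was shallow, at median depths of 1412 and 2355 UMIs, against 2442 and 2830 in cluster 20. In both clusters together *B4galnt3* was at 225 and 524 CPM (log2 ratio 1.22, 1.03 to 1.42) and *Fut9* at 43.4 and 83.5 CPM (0.94, 0.47 to 1.42). Of all 7396 genes compared in those nuclei, 855 were called higher and 393 lower. In stem-like nuclei, where 14.7% of all genes compared were called, 2 of 8 genes were called and both were higher in HIF-1α KO. *Fut9* had 80 UMIs in WT and 409 UMIs in HIF-1α KO, 100 against 379 CPM, a log2 ratio of 1.92 (1.58 to 2.29). *B4galnt3* was at 476 CPM in WT and 792 CPM in HIF-1α KO, with a log2 ratio of 0.73 (0.56 to 0.91). The median over all genes in this class was 0.17. The class rests on few markers: *Lgr5*, *Smoc2* and *Rgmb* passed, and the mean log2 ratio of crypt enterocyte markers in the cluster was 1.16 against 1.12 for stem markers, with 1 of 5 passing. Its markers also differed between libraries, with *Smoc2* at 189 CPM in WT and 313 CPM in HIF-1α KO, *Axin2* at 52.5 and 32.5 CPM and *Ascl2* at 10.0 and 0.928 CPM. Their part in the result was not tested. The share of stem-like nuclei with a *Fut9* UMI was 15.2% in WT and 47.4% in HIF-1α KO, at median depths of 1760.5 and 2970.5 UMIs, against 3.22% and 9.73% of mesenchymal-like nuclei. After thinning to 1000 UMIs it was 8.51% and 25.6%, against 1.33% and 5.2%.

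In cycling nuclei, where 12% of all genes were called, 3 of 8 genes were called and all were higher in HIF-1α KO. *Fut9* was at 62.7 and 208 CPM (log2 ratio 1.73, 1.42 to 2.06), *B4galnt3* at 432 and 719 CPM (0.74, 0.6 to 0.87) and *Galnt3* at 78.5 and 122 CPM (0.64, 0.32 to 0.96). *Fut2* ran the other way, at 250 and 189 CPM, with a log2 ratio of -0.4 (-0.61 to -0.2) that was not called. For *Fut9* and *B4galnt3* the 10 alternatives in cycling nuclei gave log2 ratios of 1.56 to 1.87 and 0.65 to 0.84, all called. The 7 alternatives that kept a stem-like class gave 1.79 to 2.03 and 0.6 to 0.84, all called.

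**Figure D4:**
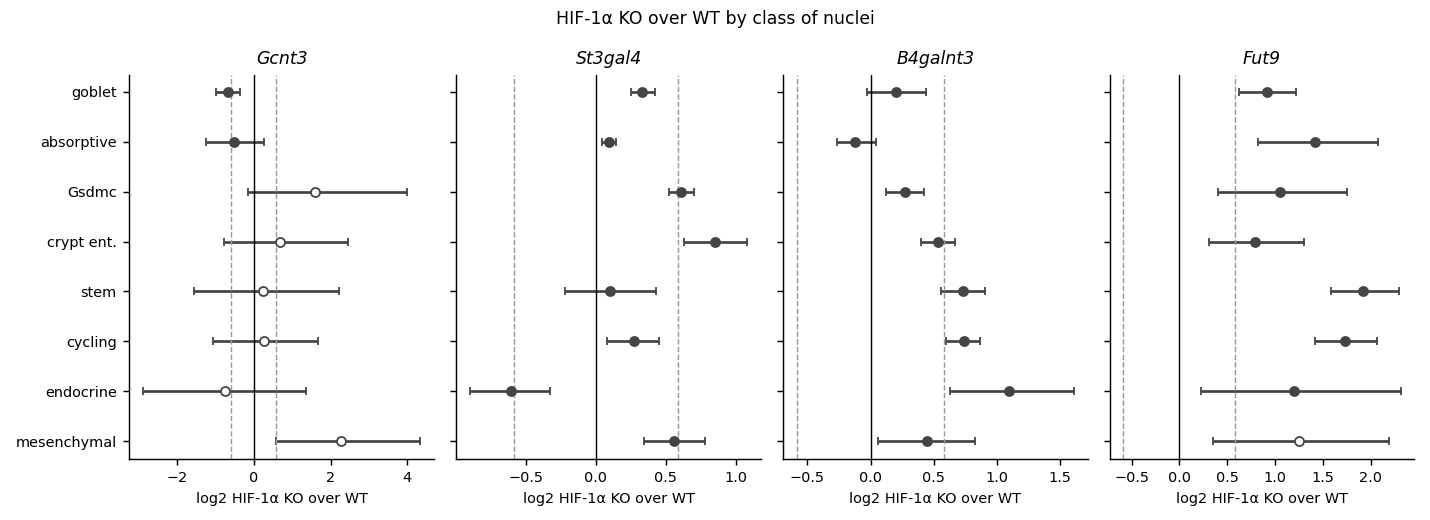
Log2 ratio of CPM, HIF-1α KO over WT, for 4 enzymes in 7 epithelial classes and in mesenchymal-like nuclei, with exact 95% intervals of counting error. Dashed lines mark 1.5-fold and open points rest on fewer than 50 UMIs; *Fut9* lies right of 0 in every class shown and highest in stem-like nuclei (1.92), and *Gcnt3* lies left of 0 with its interval in goblet-like nuclei (-0.67).

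In crypt enterocyte-like nuclei, where 11.8% of all genes were called, 2 of 8 genes were called, both higher in HIF-1α KO. *St3gal4* was at 186 and 335 CPM, a log2 ratio of 0.85 (0.63 to 1.08), beside a mesenchymal-like log2 ratio of 0.56 (0.34 to 0.78) at similar levels. *Fut9* was at 39.5 and 68.2 CPM, a log2 ratio of 0.79 (0.31 to 1.3). *B4galnt3*, at 525 and 761 CPM, had a log2 ratio of 0.53 (0.4 to 0.67) and was not called, but it was called under 5 of 10 alternatives, which ranged from 0.5 to 0.86.

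In Gsdmc enterocyte-like nuclei, where 11.8% of all genes were called as well, 2 of 8 genes were called. *St3gal4* was at 917 and 1399 CPM, a log2 ratio of 0.61 (0.52 to 0.7), at levels above the mesenchymal-like one in both libraries. *Fut9* was at 17.0 and 35.2 CPM, beside 14 and 33.4 CPM in mesenchymal-like nuclei. In absorptive-like nuclei, where *St3gal4* was highest, its log2 ratio was 0.09 (0.04 to 0.14).

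In enteroendocrine-like nuclei, where 6.51% of all genes were called, 2 of 7 genes were called. *B4galnt3* was higher in HIF-1α KO, at 99.4 and 214 CPM (log2 ratio 1.1, 0.63 to 1.61), and *St3gal4* was lower, at 432 and 282 CPM (-0.61, -0.9 to -0.33). Of the enteroendocrine-like clusters, cluster 12 held most of these nuclei in both libraries, and its *St3gal4* level was 440 and 255 CPM.

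*Fut9* was thus higher in HIF-1α KO in all 7 epithelial classes, called in 6 of them, though not under 3 of 10 alternatives in crypt enterocyte-like nuclei nor after thinning in absorptive-like nuclei, and absorptive-like and Gsdmc enterocyte-like levels were close to the mesenchymal-like ones. The rise of *Fut9* was not confined to these classes. Its log2 ratio was 1.25 (0.35 to 2.19) in mesenchymal-like nuclei, on 18 and 29 UMIs, and 0.94 in the nuclei of no named class. It was 0.53 (-0.73 to 1.78) in endothelial-like and 0.43 (-0.71 to 1.71) in immune-like nuclei, and 1.16 over all nuclei. Enteric neuron-like nuclei went the other way, at 53.1 and 40.7 CPM on 8 UMIs each. *Fut2* had a log2 ratio below 0 in all 7 epithelial classes and was called in none. Those shares are counts over classes of the same 2 libraries, which share library and depth.

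The enzymes act among many others, and 85 further glycosylation genes were compared by the same rule. The files held 84 of them, and 59 had at least 50 UMIs. Of these, 15 were called higher and 3 lower in goblet-like than in absorptive-like nuclei, against 8% and 5.96% of all genes compared. The median log2 ratio of the 59 genes was 0.51 in WT and 0.64 in HIF-1α KO.

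Among GalNAc transferases, 3 of 10 compared were higher in goblet-like nuclei. *Galnt5* was at 80.5 against 8.41 CPM in WT and 121 against 11.5 CPM in HIF-1α KO, *Galnt10* had log2 ratios of 2.86 and 3.01, and *Galnt7*, which extends partly glycosylated peptides, had 2.08 and 2.33. *Galnt5*, *Galnt10* and *Galnt7* thus ran with *Galnt12*.

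Sulfotransferases were the group with the widest gap, since 4 of 5 compared were higher in goblet-like nuclei and the group median was 4.0 in WT and 3.8 in HIF-1α KO. *Chst4*, an N-acetylglucosamine 6-O-sulfotransferase, was at 42.4 and 58.5 CPM in goblet-like and 4.67 and 4.62 CPM in absorptive-like nuclei. The galactose 3-O-sulfotransferases *Gal3st2*, *Gal3st2b* and *Gal3st2c* were at 66.4, 36.5 and 57.1 CPM in WT goblet-like nuclei. They are close copies of each other, and how shared reads were divided among them is uncertain. *Gal3st2b* had 1 UMI in WT absorptive-like nuclei, so its log2 ratio of 6.29 has an interval of 3.76 to 11.61.

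Of 7 other sialyltransferases, 3 were higher in goblet-like nuclei. *St6galnac2* had log2 ratios of 1.81 and 1.91, at 14.7 and 22.5 CPM in goblet-like nuclei. The others, named after their values were seen, were *St6galnac4* (1.12 and 1.26) and *St3gal6* (1.06 and 1.02), another α2,3-sialyltransferase, opposite in sign to *St3gal4*.

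The other side of the contrast was carried by core and chain-extension genes. *Gcnt2*, the I-branching enzyme of poly-N-acetyllactosamine chains, was lower in goblet-like nuclei, at 41.9 against 317 CPM in WT and 32.6 against 348 CPM in HIF-1α KO. *B4galt1* (log2 ratios -1.46 and -1.78) and *B3gnt2* (-1.4 and -1.78), which build lactosamine repeats, were lower too. Of the 12 chain-extension genes compared, 2 were higher, *B3gnt5* (2.3 and 2.56) and *B4galt4* (1.36 and 1.33), the latter named after its values were seen. *Gcnt2* and *Gcnt3*, both branching N-acetylglucosaminyltransferases, thus lay on opposite sides.

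In fucosylation *Fut8*, the core fucosyltransferase of N-glycans, was the 1 of 3 further fucosyltransferases called, with log2 ratios of 1.75 and 1.73. *Gmds*, which starts the synthesis of GDP-fucose, was at 5744 and 8197 CPM in goblet-like and 2117 and 2866 CPM in absorptive-like nuclei. *Slc35a1*, the Golgi transporter of CMP-sialic acid, had log2 ratios of 1.42 and 1.46. These 2 were the ones called of 17 genes of sugar donor synthesis and transport.

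**Figure D5:**
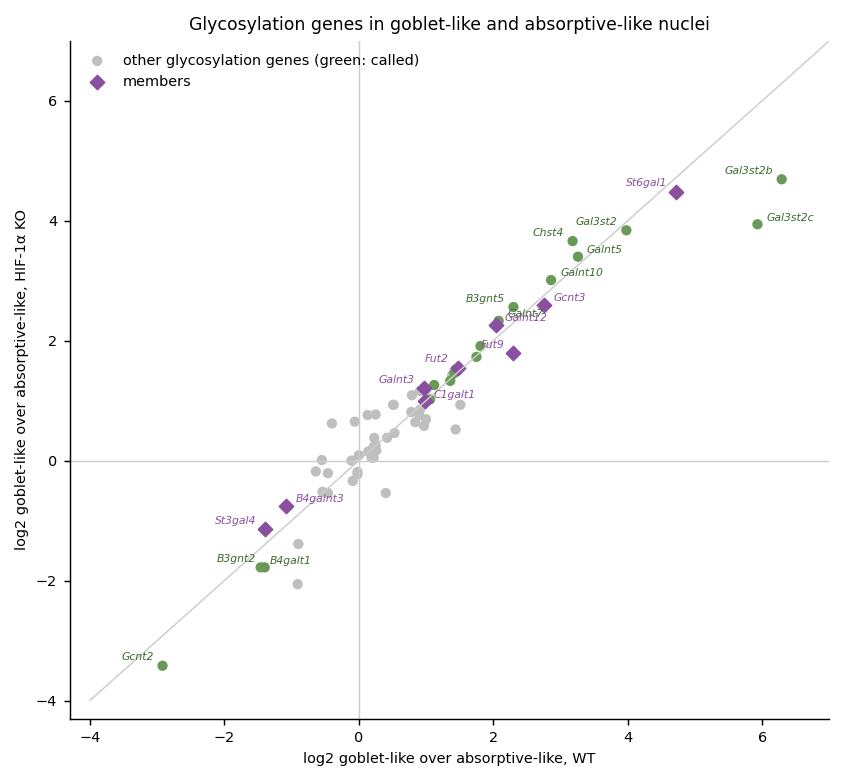
Log2 ratio of CPM, goblet-like over absorptive-like nuclei, in WT (x axis) and HIF-1α KO (y axis), for 59 other glycosylation genes (circles, green where called) and the 9 enzymes (purple diamonds). The line marks equal ratios; names are given for the 9 enzymes, for called genes below 0 and for called genes beyond 2 in both libraries, from *Gcnt2* (-2.92 and -3.42) to *Gal3st2b* (6.29 and 4.69).

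Between genotypes, 4 of 55 further glycosylation genes compared in goblet-like nuclei were called higher in HIF-1α KO and 8 lower, beside the 13.7% of all genes. The 4 were *Galnt5*, *St6galnac6*, *Gal3st1* and *Pgm3*. The 8 were *Galnt4*, *C1galt1c1*, *B4galt6*, *St6galnac3*, *B4galnt1*, *Slc35c1*, *Gal3st2* (66.4 CPM in WT and 39.2 CPM in HIF-1α KO) and *Gal3st2c* (57.1 and 36.8 CPM). All were named here after their values were seen. In absorptive-like nuclei 2 of 50 were called higher, *St6galnac6* and *Gal3st1*, and 7 lower, *Galnt1*, *Galnt2*, *Galnt4*, *St6galnac3*, *Fut4*, *B4galnt1* and *Slc35c1*, beside the 16.7% of all genes.

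Genes with the most similar pattern were found by Pearson's r of log2(CPM + 10) over 24 points, 12 named classes in each of 2 libraries, among 8205 genes with at least 500 UMIs. The points share libraries, depth and free RNA, so r is a description. *Galnt3*, *Galnt12* and *C1galt1* each had *Abo*, the ABO blood group transferase, among their 3 closest genes (r = 0.878, 0.903 and 0.917). *Galnt12* had r = 0.898 with *C1galt1* and 0.878 with *Galnt3*, and *Galnt3* was closest to *Gcc2* (0.936) and *Mctp2* (0.891), while *C1galt1* had *Cd200r2* at 0.885. *Gcnt3* was closest to *Sytl4* (0.804), *Ano7* (0.791) and *Atp6v0d1* (0.783).

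*St6gal1* was closest to *Slc38a9* (0.901), *Sh3pxd2a* (0.812) and *Rabep1* (0.806), and *Fut2* to *Pkhd1* (0.906), *Shroom3* (0.894) and *Tm9sf2* (0.891). *St3gal4* was closest to *Rdh16* (0.876), *Mgam2-ps* (0.872) and *Smap1* (0.845). *B4galnt3* had the highest values of the 9 genes, with *Ptprd* (0.948), *Gss* (0.931) and *Cers6* (0.924), and *Fut9* had *Fntb* (0.788), *Fstl4* (0.783) and *Pcyt2* (0.746). *St6galnac1* was too low to be compared.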

How the data were processed

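The authors made the count matrices with Cell Ranger 7.0.1 on mm10 from 10x Chromium 3′ v3.1 libraries. The deposited values are raw UMI counts per gene and nucleus, and whether introns or strand were used in counting is not given in the sources used here. Nuclei with 400 to 5000 detected genes and at most 10% mitochondrial UMIs were kept, as in the study's methods. Libraries were log-normalized, integrated and clustered with Seurat 5.3.0 (30 principal components, resolution 1), after 22 glycosylation genes were removed from 2000 variable features. A cluster was named where at least 3 markers of a class were 2-fold above the other nuclei and in at least 10% of its nuclei, and no other class had more markers among its top 10 genes. These naming limits were set after the data were seen. UMIs were summed by class and library and scaled to 1000000 UMIs, with exact Poisson intervals. The calling rule was tested on simulated data, which give no measure of the spread between pools or libraries. The 10 genes, gene lists and markers were chosen with earlier results of these data known. Named beside the 10 genes were other glycosylation genes called in both libraries, at most 12 each way, the 3 genes of highest r, and class markers. Gene positions are from GENCODE M21 (32235 of 32285 gene IDs matched). Alternatives covered filter, integration, resolution, features, assignment, depth, weighting, TMM scaling (edgeR 4.0.16), background and fold.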

Additional observations from a re-analysis of the deposited data

Results flagged for a closer look

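HIF-1α KO over WT ratios of 3 genes pointed in opposite directions in 2 sets of nuclei, each with an interval of counting error on its own side of 0. The difference between the sets was not tested, since each genotype has 1 library. *St3gal4* had a log2 ratio of -0.61 in enteroendocrine-like nuclei and 0.85 in crypt enterocyte-like nuclei, and the second value lay beside a mesenchymal-like log2 ratio of 0.56. Among goblet-like clusters, *St6gal1* was at -0.24 in cluster 10 and 0.36 in cluster 5, and *Fut2* was at -0.36 in cluster 5 and 0.32 in cluster 7.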

How the results depend on the processing

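With 1 pooled library per genotype, no replicate could be left out. Counts were lowest for *St6galnac1* (7 UMIs in all) and for *Gcnt3* outside goblet-like nuclei. The count of genes higher in goblet-like nuclei was 5 to 7 under all 15 alternatives, with the same 5 genes in each. The count lower there, 1 as reported, was 0 without integration and after thinning, and 2, with *B4galnt3* added, at resolution 2, under TMM scaling, with the mesenchymal level subtracted, at 1.5-fold and without cluster 5 (an alternative chosen after the data were seen, like every cluster left out and every value for stem-like, cycling and crypt enterocyte-like nuclei). With marker scores it was 1, *B4galnt3* in place of *St3gal4*. Other glycosylation genes called numbered 18 as reported, 30 after subtraction of the mesenchymal level and 28 at 1.5-fold. Calls between genotypes in goblet-like nuclei, 2 as reported, were 1 after thinning and with equal weighting (*Gcnt3* lost both times), and 6 with intervals apart at any fold. In absorptive-like nuclei, 1 as reported, they were 0 after thinning, and 2 after subtraction of the mesenchymal level, which left no *Fut9* in either library there, and with intervals apart at any fold. After subtraction of the mesenchymal level *B4galnt3* in goblet-like nuclei had a log2 ratio of HIF-1α KO over WT of -4.71 with HIF-1α KO set at the floor of 3 UMIs, against 0.2 as reported. TMM scaling moved all log2 ratios of goblet-like over absorptive-like nuclei by -0.13 in WT and -0.34 in HIF-1α KO, and those of HIF-1α KO over WT in absorptive-like nuclei by 0.27. Over the 42 single log2 ratios, 498 of 520 alternative values kept their sign. *Fut9* in crypt enterocyte-like nuclei ranged from 0.38 to 1.38 and was not called under 3 of 10 alternatives, and *B4galnt3* there ranged from 0.5 to 0.86 and was called under 5. With the mesenchymal level subtracted the goblet-like over absorptive-like log2 ratio of *Gcnt3* was 3.17 in WT and 6.0 in HIF-1α KO. The second value has HIF-1α KO absorptive-like nuclei set at the floor of 3 UMIs, from a mesenchymal-like level that rests on 13 UMIs. Stem-like nuclei formed no named class without integration, at resolution 0.5 and with glycosylation genes kept among the features. The causes of these changes were not tested.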
